A study of Mus musculus with 6 samples.

Results

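The AP-1 and EGR immediate early factors were followed here as 10 genes, Fos, Fosb, Fosl1, Jun, Junb, Egr1, Egr2, Egr3, Atf3 and Ier2, chosen by name out of the 55450 genes in the deposited tables. Each of the 10 matched 1 row, and all 10 passed the filter on low counts. RNA was sequenced from 6 tumours, 3 injected with PV-10 and 3 injected with phosphate-buffered saline (PBS). PV-10, a rose bengal preparation, and PBS were both given by injection into the lesion. All 6 tumours grew under the skin of the right flank of C57BL/6 mice from MTE-Ras cells, which are cancer cells of tracheal epithelium carrying an oncogenic RAS mutation, and the labels give no dose, no animal age and no time between injection and collection. The tumours were sequenced whole, and they share the single MTE-Ras line, so the host cells they hold are part of each value.

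Immediate early genes are transcribed within minutes of a stimulus without new protein synthesis, and their mRNAs are short-lived. FOS and JUN family proteins pair through leucine zippers into the transcription factor AP-1, while EGR proteins are zinc finger factors that bind GC-rich sites. Signalling from RAS through the ERK kinases induces many of them, by way of the serum response factor SRF and its ternary complex partners, and FRA-1, the product of Fosl1, is known to be abundant in RAS-transformed cells. Stress kinases act on the same genes, and ATF3 is a classic product of cell stress.

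The sequences around the start sites of 3 of the members are shown, with the letters of response elements known from this class of genes. RefSeq promoter windows (GRCm38.p6, 250 bases before to 50 after the start site, 5′ to 3′ on the strand of the gene) matched 6 of the 10 members, and Fosl1, Egr1, Egr3 and Ier2 had no entry. Egr2 has 5 windows, of which the one at the start of the first numbered Gencode transcript was taken. The capitals mark TATAAA, the core of the TATA box, TGACG or its reverse complement, the core of a cAMP response element, the EGR letters GCGNGGGCG, and the CArG box bound by SRF.
Fos, chr12:85473640-85473939, plus strand: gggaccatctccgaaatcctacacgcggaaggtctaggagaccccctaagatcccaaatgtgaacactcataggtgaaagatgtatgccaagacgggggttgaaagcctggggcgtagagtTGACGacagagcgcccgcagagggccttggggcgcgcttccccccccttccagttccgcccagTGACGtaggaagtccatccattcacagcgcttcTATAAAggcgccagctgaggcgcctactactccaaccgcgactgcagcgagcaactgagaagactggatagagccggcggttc
Fosb, chr7:19309996-19310295, minus strand: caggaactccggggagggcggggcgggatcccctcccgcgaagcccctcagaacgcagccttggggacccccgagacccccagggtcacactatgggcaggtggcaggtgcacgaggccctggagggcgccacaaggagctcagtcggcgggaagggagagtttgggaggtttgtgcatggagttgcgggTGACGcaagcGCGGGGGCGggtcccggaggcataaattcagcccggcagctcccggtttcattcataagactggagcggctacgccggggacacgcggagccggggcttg
Egr2, chr10:67537619-67537918, plus strand: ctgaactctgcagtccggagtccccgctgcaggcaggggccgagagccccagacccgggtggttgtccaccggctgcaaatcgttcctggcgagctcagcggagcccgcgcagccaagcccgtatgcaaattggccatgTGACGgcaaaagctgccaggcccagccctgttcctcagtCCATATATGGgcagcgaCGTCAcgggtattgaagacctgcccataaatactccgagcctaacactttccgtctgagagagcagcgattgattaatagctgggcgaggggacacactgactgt
Both strands were searched. In Fos the TATAAA match began at -33 and the TGACG matches at -129 and -66, counted from the start site. In Fosb TGACG began at -60 and the EGR letters at -50, so the Fosb window holds a sequence of the kind that EGR proteins bind. In Egr2 the CArG box began at -72, with TGACG matches at -111 and -55. Of the 6 members' windows, 5 held TGACG, against 20.8% of all 32851 windows in the table, and 2 held TATAAA, against 13.6%. These 2 were Fos and Junb, and in Junb the TATAAA match began at 0, on the start site itself. The EGR letters were in 1 of the 6, against 5.55% of all windows, and the CArG box in 1 of the 6, against 1.63%. Letters more than 250 bases before the start site lie outside the windows and were not searched. The full cAMP response element TGACGTCA, in 1.79% of all windows, and the AP-1 letters TGANTCA, in 7.81%, were in 0 of the 6. The window of Jun held no match to any of the letters searched. A match describes the letters of a window and does not show binding, and the part of these letters in the members' levels was not tested.

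Gene counts summed to between 36730318 and 98717951 per tumour, and the members had between 61 counts, for Atf3 in PV-10 tumour 1, and 37895 counts, for Egr1 in PBS tumour 2. PV-10 tumour 3 stood apart from its own group. Its log2 CPM (counts scaled to library size) correlated with the PBS tumours at 0.909 to 0.93, but with PV-10 tumours 1 and 2 at only 0.874 and 0.822. Fitted changes of the members are therefore also given without it. PV-10 tumours 1 and 2 had the fewest counts in total, 60082066 and 36730318, but the most genes with a count, 35314 and 28343. PV-10 tumour 3 had 22764 such genes, and PBS tumours 1, 2 and 3 had 19163, 22895 and 23068. The part of this difference in the members' values was not tested. Libraries also differed in how their levels depended on transcript length. Among 11351 expressed genes (average log2 CPM of at least 2), the slopes were -0.30, -0.27 and -0.06 log2 CPM per doubling of effective length in PV-10 tumours 1, 2 and 3, against 0.14, 0.27 and 0.23 in PBS tumours 1, 2 and 3. Changes were therefore also fitted with each library's trend over length and GC content removed, in 2 versions. The first estimated the trend over all genes tested. The second, chosen after seeing the data, estimated it over the expressed genes alone. The 2 versions differ widely for the members, so both are given, as the all-gene trend and the expressed-gene trend.

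Levels of the immediate early factors were lower in the PV-10 tumours across most of the set, and Egr1 and Egr3 had the largest fitted differences. Egr3 fell to 29.4% of its PBS level, and it was the only member of the 10 that passed the test. Egr1, Fosb, Jun and Fosl1 averaged between 27.5% and 45.04% of their PBS levels but did not pass it. Atf3 had nearly the same mean in both groups. With edgeR's quasi-likelihood test over 22056 genes, 1 member was called lower (adjusted p under 0.05) and 0 higher, where 1.92% of all genes tested were called lower and 3.17% higher. The 10 fitted log2 changes were all below 0, with a median of -0.95. The median was 0.30 over all genes tested, 41.5% of which were below 0. It was -0.30 over the expressed genes, the level range in which the members lie, and 62.5% of those were below 0. With the all-gene trend removed, all 10 members were below 0, with a median of -1.23, against -0.24 for all genes tested. The median of the expressed genes alone is not given for that fit. With the expressed-gene trend removed, 8 of the 10 members were below 0, with a median of -0.63, against a median of -0.04 and 52.3% below 0 for the expressed genes. At an unadjusted p under 0.05, 6 of the 10 members were lower, against 14.5% of all genes tested, scarce genes included. That share is not given here for the expressed genes alone. Changes below 0 were more common among them, at 62.5% against 41.5%. In bulk tumours fewer cells of a type and less RNA per cell cannot be told apart.

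**Figure D1:**
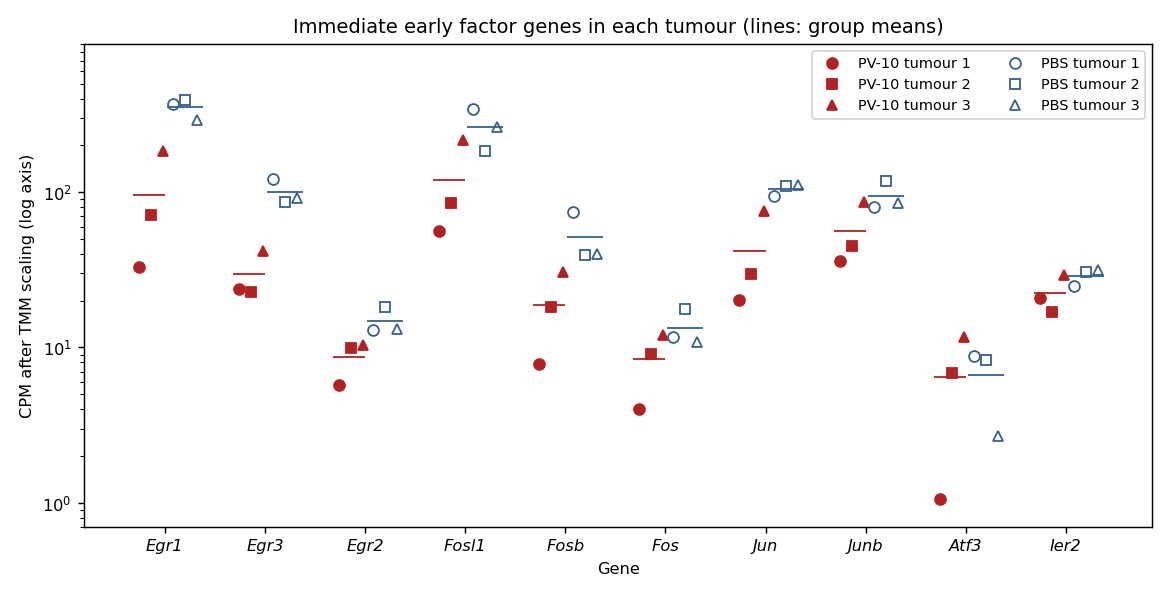
Level of each gene in each of the 6 tumours, in CPM after TMM scaling on a log axis, with filled red symbols for PV-10 tumours, open blue symbols for PBS tumours and lines at the group means of 3 tumours. The PV-10 tumours lie below all PBS tumours for Egr1, Egr3, Egr2, Fosb and Jun, and PV-10 tumour 3 is the highest PV-10 tumour for all 10 genes.

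The EGR genes are taken first. Egr3 encodes a zinc finger factor known for its part in muscle spindle development and in restraining T cell activation (ENSMUSG00000033730.4, mm10 chromosome 14, 70077203 to 70082614, plus strand). Its level was 23.8, 22.8 and 41.8 CPM in PV-10 tumours 1, 2 and 3, against 121, 86.9 and 92.3 CPM in PBS tumours 1, 2 and 3. The groups did not overlap, and the highest PV-10 tumour had less than the lowest PBS tumour. Egr3 averaged 29.5 ± 10.7 CPM in PV-10 and 100.2 ± 18.6 CPM in PBS tumours (SD, n = 3 each). Its log2 change was -1.76 (SE 0.32), called by the edgeR quasi-likelihood test with Benjamini-Hochberg adjustment (adjusted p = 0.0443). It ranked 37th by p among genes with a lower level in PV-10 tumours. The lowest adjusted p over all genes was also 0.0443, so the call lies close to the threshold. It was lost on leaving out PV-10 tumour 1 or 2 or any PBS tumour (edgeR adjusted p between 0.074 and 0.205, log2 change between -1.89 and -1.62). Without PV-10 tumour 3 Egr3 was called at -2.10 (edgeR adjusted p = 6.05e-04). Its log2 change was -2.10 with the all-gene trend removed (edgeR adjusted p = 0.14) and -1.38 with the expressed-gene trend removed (SE 0.21, edgeR adjusted p = 0.0535). In the second of these fits it ranked 3rd by p among the 8330 genes that were lower, and 0.0535 was the lowest adjusted p among them. Neither fit called any gene lower, although 5537 and 6077 genes had an unadjusted p under 0.05.

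Egr1 encodes the founding member of the family, a factor induced by growth factors and injury (ENSMUSG00000038418.7, mm10 chromosome 18, 34859823 to 34864984, plus strand). Its level was 33.1, 71.3 and 185 CPM in PV-10 tumours 1, 2 and 3, against 369, 392 and 292 CPM in PBS tumours 1, 2 and 3. All PV-10 tumours lay below all PBS tumours, but the PV-10 tumours themselves spanned a 5.58-fold range. Egr1 averaged 96.4 ± 78.9 CPM in PV-10 and 351 ± 52.4 CPM in PBS tumours (SD, n = 3 each). The log2 change of -1.86 (SE 0.54) had the largest size of the 10 but missed the threshold (edgeR adjusted p = 0.0641). It was -1.89 with the all-gene trend removed (edgeR adjusted p = 0.14) and -1.08 with the expressed-gene trend removed (edgeR adjusted p = 0.0736). Without PV-10 tumour 3 it was -2.75 and was called (edgeR adjusted p = 0.00133). DESeq2, the tool named in the labels' protocols, called Egr1 with all 6 tumours, at a log2 change of -1.81 (DESeq2 adjusted p = 0.00215).

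Egr2, known for its role in peripheral nerve myelination and hindbrain patterning, was less abundant (ENSMUSG00000037868.15, mm10 chromosome 10, 67535475 to 67542188, plus strand). It had 5.71, 9.99 and 10.4 CPM in PV-10 tumours 1, 2 and 3, against 13.02, 18.1 and 13.1 CPM in PBS tumours 1, 2 and 3. The groups did not overlap, by a narrow margin. The log2 change of Egr2 was -0.76 (SE 0.32, edgeR adjusted p = 0.145), and -0.91 without PV-10 tumour 3 (edgeR adjusted p = 0.0559). It was -1.22 with the all-gene trend removed (edgeR adjusted p = 0.14) and -1.05 with the expressed-gene trend removed (edgeR adjusted p = 0.0714). Egr2 thus lay further below 0 under both removals, but was not called under either. With the all-gene trend removed the median over all genes tested moved down as well, from 0.30 to -0.24. Relative to that median Egr2 did not lie lower than before.

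Fosl1, which encodes FRA-1, had the highest mean TPM, a level scaled by length, of the FOS genes (ENSMUSG00000024912.6, mm10 chromosome 19, 5447547 to 5455946, plus strand). Fosl1 had 56.1, 84.8 and 216 CPM in PV-10 tumours 1, 2 and 3, against 343, 185 and 264 CPM in PBS tumours 1, 2 and 3. PV-10 tumour 3 lay above PBS tumour 2, so the groups overlapped. Fosl1 averaged 119 ± 85.04 CPM in PV-10 and 264 ± 79.2 CPM in PBS tumours (SD, n = 3 each). The log2 change of -1.15 (SE 0.48) missed the threshold (edgeR adjusted p = 0.147). It was -1.23 with the all-gene trend removed and -0.65 with the expressed-gene trend removed (edgeR adjusted p = 0.2 in both). Fosl1 was called at -1.90 without PV-10 tumour 3 (edgeR adjusted p = 0.00372). Ccdc85b lies on the other strand over 2767 bases of the Fosl1 gene. The libraries were strand-specific, per the labels, but whether counting used strand is not given in the sources used here.

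Fosb, whose product is a strong AP-1 activator best known from neurons (ENSMUSG00000003545.3, mm10 chromosome 7, 19302696 to 19310051, minus strand), had 7.88, 18.1 and 30.6 CPM in PV-10 tumours 1, 2 and 3. It had 74.1, 39.5 and 39.96 CPM in PBS tumours 1, 2 and 3. The groups did not overlap, with PBS tumour 1 well above the others. The log2 change of Fosb was -1.44 (SE 0.48, edgeR adjusted p = 0.0808), -1.55 with the all-gene trend removed (edgeR adjusted p = 0.146) and -0.52 with the expressed-gene trend removed (edgeR adjusted p = 0.353). Fosb was called at -1.99 without PV-10 tumour 3 (edgeR adjusted p = 0.0142).

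Fos, the prototype AP-1 subunit (ENSMUSG00000021250.13, mm10 chromosome 12, 85473890 to 85477273, plus strand), was scarce in both groups. It had 4.01, 9.12 and 12.1 CPM in PV-10 tumours 1, 2 and 3, against 11.6, 17.8 and 10.9 CPM in PBS tumours 1, 2 and 3. PV-10 tumour 1 was low, but PV-10 tumour 3 lay within the PBS range. The log2 change was -0.67 (SE 0.41, edgeR adjusted p = 0.302), -1.08 with the all-gene trend removed, -0.93 with the expressed-gene trend removed and -1.04 without PV-10 tumour 3. Fos did not pass the test in any of the 20 alternative settings run (adjusted p between 0.0829 and 0.62).

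Jun and Junb encode the partners of the FOS proteins. Jun, which is itself an AP-1 target (ENSMUSG00000052684.4, mm10 chromosome 4, 95049034 to 95052222, minus strand), had 20.2, 29.6 and 75.4 CPM in PV-10 tumours 1, 2 and 3. It had 94.9, 109.6 and 112 CPM in PBS tumours 1, 2 and 3. The PBS tumours were close together, within a 1.18-fold range, and all PV-10 tumours lay below them over a 3.73-fold range. The log2 change of Jun was -1.34 (SE 0.45, edgeR adjusted p = 0.0843), -1.39 with the all-gene trend removed (edgeR adjusted p = 0.159) and -0.61 with the expressed-gene trend removed (edgeR adjusted p = 0.127). It was called at -2.08 without PV-10 tumour 3 (edgeR adjusted p = 6.74e-04).

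Junb, which can antagonise Jun at shared sites (ENSMUSG00000052837.6, mm10 chromosome 8, 84974484 to 84978718, minus strand), had 35.99, 45.1 and 86.5 CPM in PV-10 tumours 1, 2 and 3. It had 80.5, 118 and 85.1 CPM in PBS tumours 1, 2 and 3. PV-10 tumour 3 lay above PBS tumours 1 and 3, so the groups overlapped. The log2 change was -0.76 (SE 0.36, edgeR adjusted p = 0.194). It was -0.82 with the all-gene trend removed (edgeR adjusted p = 0.27) but -0.02 with the expressed-gene trend removed (edgeR adjusted p = 0.966). Junb was called at -1.22 without PV-10 tumour 3 (edgeR adjusted p = 0.00662). The end of Prdx2, a peroxiredoxin gene on the other strand, overlaps Junb over 351 bases. Prdx2 had a mean of 195 CPM in PV-10 and 90.5 CPM in PBS tumours, and its part in the Junb value was not tested.

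Atf3 and Ier2 differed least. Atf3, a stress-induced bZIP factor (ENSMUSG00000026628.13, mm10 chromosome 1, 191170296 to 191218039, minus strand), had 1.05, 6.82 and 11.6 CPM in PV-10 tumours 1, 2 and 3, against 8.86, 8.3 and 2.7 CPM in PBS tumours 1, 2 and 3. Both groups held low and high tumours, and the PV-10 tumours spanned an 11.0-fold range. The log2 change of Atf3 was -0.03 (SE 0.73, edgeR adjusted p = 0.983), and its sign depended on the setting, with -0.32 after removal of the all-gene trend, 0.13 after removal of the expressed-gene trend and -0.76 without PV-10 tumour 3. Ier2, a small nuclear protein gene of the immediate early class (ENSMUSG00000053560.4, mm10 chromosome 8, 84661331 to 84662852, minus strand), had 20.8, 16.8 and 29.3 CPM in PV-10 tumours 1, 2 and 3, against 24.8, 30.5 and 31.7 CPM in PBS tumours 1, 2 and 3. Its log2 change was -0.38 (SE 0.28, edgeR adjusted p = 0.39), -0.46 with the all-gene trend removed and 0.18 with the expressed-gene trend removed. Ier2 was called at -0.62 without PV-10 tumour 3 (edgeR adjusted p = 0.0468).

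**Figure D2:**
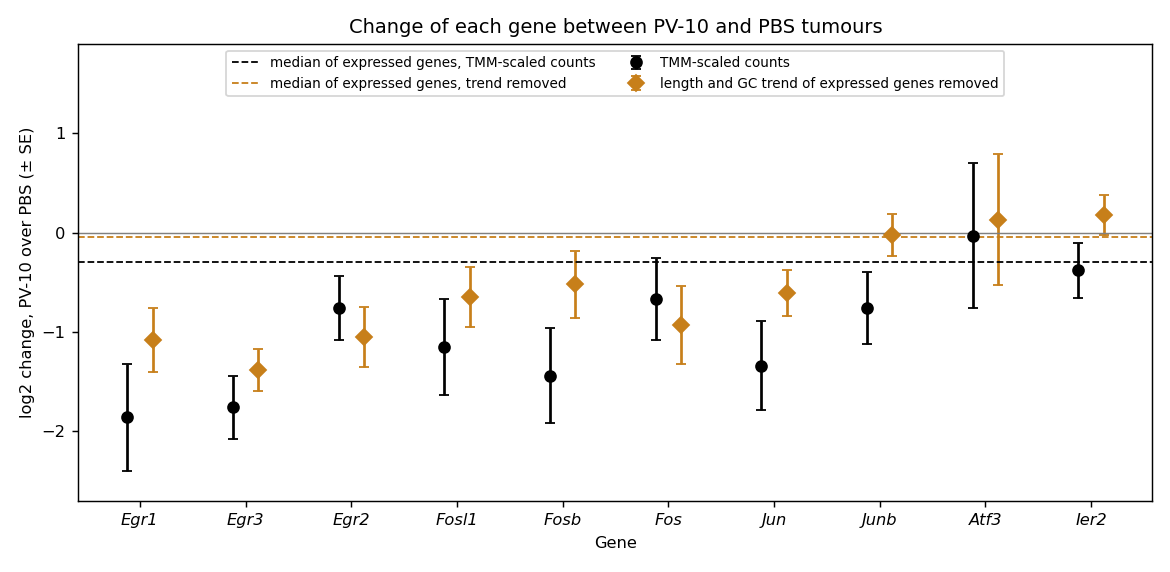
Fitted log2 change of each gene between PV-10 and PBS tumours with its standard error (n = 3 tumours each), from TMM-scaled counts (black circles) and with the length and GC trend of expressed genes removed (orange diamonds), beside the median of all expressed genes in each fit (dashed lines). Egr1 and Egr3 lie lowest at -1.86 and -1.76, Egr3 is lowest at -1.38 with the expressed-gene trend removed, and Junb, Atf3 and Ier2 then lie at -0.02, 0.13 and 0.18.

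Counted by groups that do not overlap, 5 of the 10 members (Egr1, Egr2, Egr3, Fosb and Jun) had all PV-10 tumours below all PBS tumours in CPM. The same held for 16.8% of all genes tested and for 30.3% of the expressed genes. In TPM, transcript abundance scaled by length, 7 members did so, Fosl1 and Junb with them, against 30.99% of all genes and 53.1% of the expressed genes. In TPM the share of genes that were lower is thus larger for the members and for the background alike. PV-10 tumour 3 was the highest PV-10 tumour for all 10 members, as it was for 61.5% of the expressed genes. PV-10 tumour 1 was the lowest for 8 of the 10, with PV-10 tumour 2 lowest for Egr3 and Ier2. Against the PBS mean, Egr1 lay at -3.41, -2.30 and -0.92 on the log2 scale in PV-10 tumours 1, 2 and 3, and Egr3 at -2.07, -2.14 and -1.26. Egr3 was the only member with a value below -1 in every PV-10 tumour. No PBS tumour was highest throughout, PBS tumours 1, 2 and 3 being highest for 4, 4 and 2 members.

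**Figure D3:**
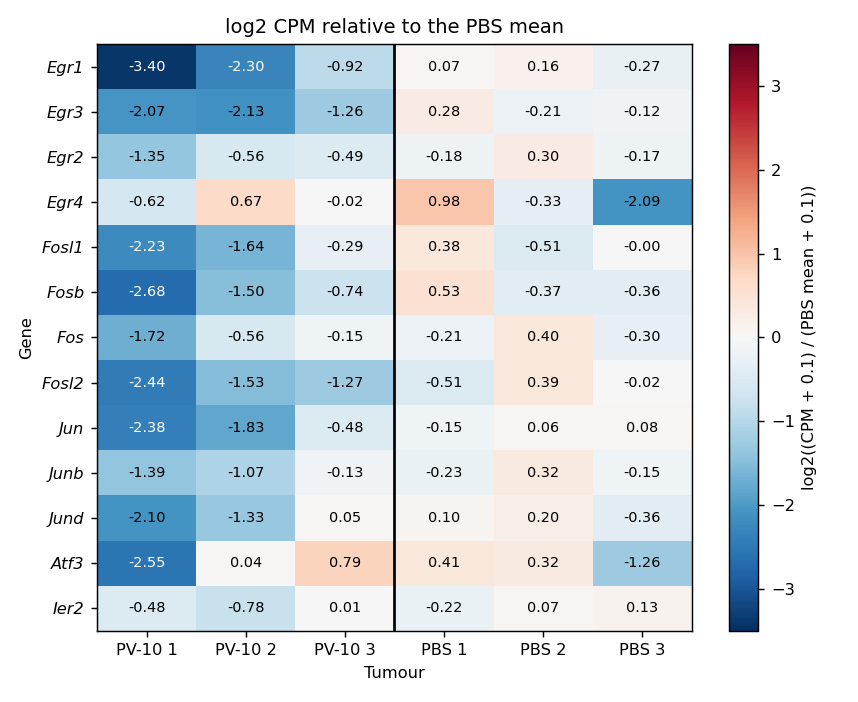
Level of each gene in each tumour as log2((CPM + 0.1) / (PBS mean + 0.1)), with PV-10 tumours left and PBS tumours right of the black line, including the family members Egr4, Fosl2 and Jund. Blue cells are below the PBS mean: PV-10 tumour 1 holds the lowest values (Egr1 at -3.40), and PV-10 tumour 3 lies at 0.01 for Ier2 and 0.79 for Atf3.

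How many members were called depended on the setting more than their direction did. Without PV-10 tumour 3, 7 of the 10 were called lower (all but Fos, Egr2 and Atf3), where 16.4% of 27510 genes were called lower and 25.02% higher. Leaving out any other tumour left 0 members called, and 0 or 1 genes called lower in all, while edgeR gave between 4614 and 6851 genes an unadjusted p under 0.05. DESeq2 called 5 members lower (Fosb, Fosl1, Jun, Egr1 and Egr3), against 7.82% of the genes to which it gave an adjusted p, 19.6% being called higher. edgeR without a low-count filter called the same 5, where 6.7% of genes were called lower and 5.2% higher. Limma on log2(TPM + 1) called 6, these 5 and Junb, where 17.2% of genes tested were called lower and 1.14% higher. Limma-voom called Jun, Egr1 and Egr3, where 5.35% were called lower and 3.79% higher. A fit on protein-coding genes alone called Egr1 and Egr3, where 7.77% were called lower and 9.58% higher. With the expressed-gene trend removed 0 members and 0 genes were called lower by edgeR and 0.00453% higher, while 6077 genes had an unadjusted p under 0.05.

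Levels per length gave the order of the members. In PBS tumours Fosl1 was highest at 129 ± 18.9 TPM (mean ± SD, n = 3), and Egr1 was next at 97.5 ± 23.1 TPM, with overlapping ranges. The range of Egr1 lay clear of that of Junb, which followed at 50.03 ± 18.3 TPM. Egr3 at 35.3 ± 1.49, Jun at 29.7 ± 6.84, Ier2 at 18.4 ± 4.81, Fosb at 11.7 ± 2.65, Egr2 at 10.9 ± 3.21 and Fos at 9.54 ± 3.77 TPM came next, each overlapping its neighbour in range. Atf3 was lowest at 3.22 ± 1.51 TPM and lay below every Fos value. In PV-10 tumours Fosl1 was again highest at 39.1 ± 36.1 TPM, Junb stood at 18.1 ± 12.7 and Egr1 at 17.1 ± 16.9 TPM. Every neighbouring pair in the PV-10 order overlapped in range.

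Summed over the families, Fosl1 made up most of the FOS transcripts in both groups. The summed TPM of Fos, Fosb, Fosl1 and Fosl2 was 20.7, 35.9 and 108 in PV-10 tumours 1, 2 and 3, against 197, 205 and 202 in PBS tumours 1, 2 and 3. Fosl1 held 68.7 ± 6.08% of the FOS sum in PV-10 and 63.9 ± 10.5% in PBS tumours (mean ± SD, n = 3 each), so its share differed by less than the spread between tumours. The JUN sum of Jun, Junb and Jund was 20.9, 34.02 and 108 TPM in PV-10 tumours, against 129, 213 and 141 TPM in PBS tumours. Jun held 13.4 ± 0.592% of the JUN sum in PV-10 and 18.7 ± 3.33% in PBS tumours, and the lowest PBS share, 16.5%, lay above the highest PV-10 share, 14.04%. The EGR sum was 11.1, 17.5 and 54.5 TPM in PV-10 tumours, against 130.3, 175 and 127 TPM in PBS tumours. Egr2 held 20.3 ± 9.32% of the EGR sum in PV-10 and 7.47 ± 1.11% in PBS tumours, and its share in every PV-10 tumour lay above that in every PBS tumour. The fitted log2 changes of Egr1, Egr2 and Egr3 were -1.86, -0.76 and -1.76. With the all-gene trend removed they were -1.89, -1.22 and -2.10. With the expressed-gene trend removed they were -1.08, -1.05 and -1.38, so Egr1 and Egr2 then changed alike. The part of length and GC content in the family shares was not tested. These family sums do not overlap between the groups, a direction that 53.1% of expressed genes share in TPM.

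**Figure D4:**
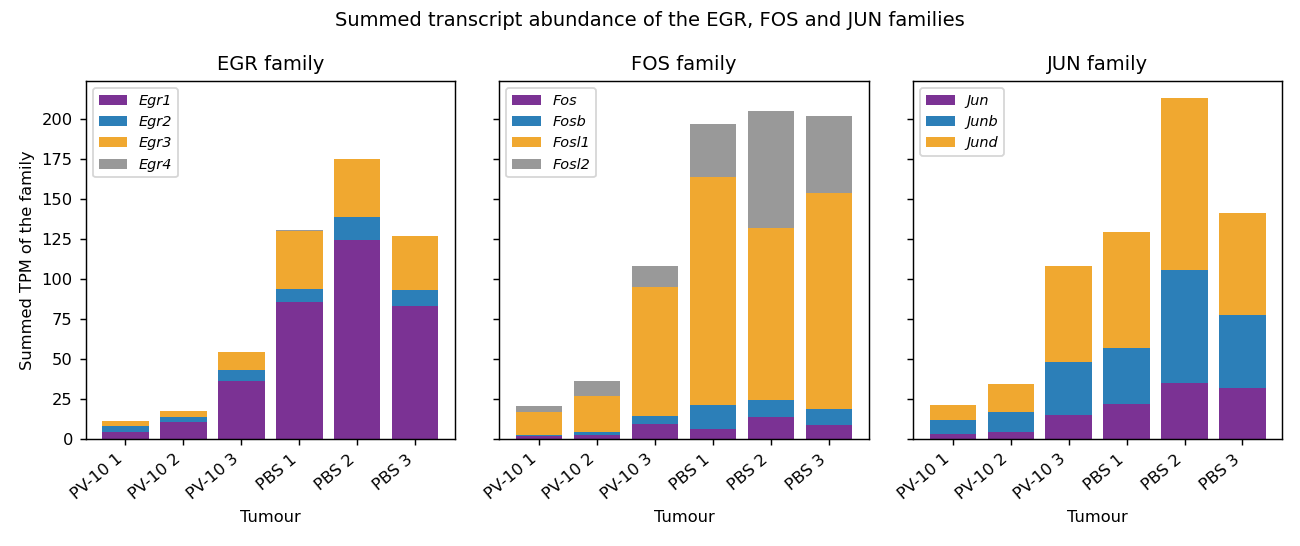
Summed TPM of the EGR, FOS and JUN families in each tumour, as stacked bars by gene, with PV-10 tumours left of PBS tumours. The FOS sum is 20.7 and 35.9 in PV-10 tumours 1 and 2, 108 in PV-10 tumour 3 and between 197 and 205 in the PBS tumours, with Fosl1 as the largest part.

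The rest of the pathway was read from 4 lists, beside the 1.92% of all genes tested that were called lower, the 3.17% called higher, and the expressed genes, whose median was -0.30 with 62.5% below 0. Of 13 other AP-1 family members 2 fell, 0 rose and 11 did not pass the test, with a median log2 change of -0.50 and 11 below 0. Fosl2, the fourth FOS family gene, fell to 33.2, 62.3 and 74.98 CPM in PV-10 tumours, against 127, 237 and 178 CPM in PBS tumours (log2 change -1.67, SE 0.37, edgeR adjusted p = 0.0451). Atf7, a CRE-binding factor related to ATF2, fell to 50.9 ± 27.3 CPM in PV-10, against 178 ± 18.9 CPM in PBS tumours (log2 change -1.80, SE 0.41, edgeR adjusted p = 0.0456). With the expressed-gene trend removed, the list's median was -0.16, Fosl2 was at -0.98 and Atf7 at -1.94, and with the all-gene trend removed they were at -1.86 and -2.25. Neither was called in these fits.

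Of 45 other immediate early and early-response genes 1 fell, 0 rose and 44 did not pass the test, a share near the 1.92% of all genes called lower. Their median log2 change was -0.56, or -0.24 with the expressed-gene trend removed, and 38 of the 45 were below 0, or 28 of the 45 with that trend removed. Per1, a clock gene that is also induced by cAMP signals, fell to 30.1 ± 19.9 CPM in PV-10, against 113 ± 16.1 CPM in PBS tumours (log2 change -1.91, SE 0.45, edgeR adjusted p = 0.048). Its change was -1.92 with the all-gene trend removed and -0.66 with the expressed-gene trend removed. Myc and Nr4a1, 2 early-response genes chosen after their values were seen, averaged 164 ± 106 and 24.7 ± 16.4 CPM in PV-10, against 322 ± 56.4 and 54.7 ± 9.005 CPM in PBS tumours, and neither passed the test with all tumours. Both were called without PV-10 tumour 3, Myc at -1.64, against -0.97 with all tumours, and Nr4a1 at -1.83, against -1.15 (edgeR adjusted p = 0.000999 and 0.00227). With the expressed-gene trend removed they were at -0.73 and -0.50, and with the all-gene trend removed at -1.19 and -1.20.

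Upstream, of 28 genes for ERK, JNK and p38 kinases and for SRF partners and CREB with its coactivators, 2 fell, 0 rose and 26 did not pass the test, with a median of -0.80 and 24 below 0. The 2 were the paralogous histone acetyltransferase coactivators Crebbp and Ep300. Crebbp fell to 111 ± 59.96 CPM in PV-10, against 383 ± 35.4 CPM in PBS tumours (log2 change -1.78, edgeR adjusted p = 0.0443). Ep300 fell to 114 ± 56.8 CPM in PV-10, against 349 ± 33.3 CPM in PBS tumours (log2 change -1.62, edgeR adjusted p = 0.047). With the expressed-gene trend removed the list's median was -0.25 and Crebbp and Ep300 were at -0.71 and -0.59, and with the all-gene trend removed they were at -2.27 and -2.11. Neither was called in these fits. SRF itself, also chosen after its values were seen and counted in the early-response list, had 19.1, 13.9 and 42.6 CPM in PV-10 tumours, against 70.05, 62.3 and 72.9 CPM in PBS tumours. The groups did not overlap for Srf, but the threshold was missed (log2 change -1.44, edgeR adjusted p = 0.0598). Srf was called at -2.05 without PV-10 tumour 3 (edgeR adjusted p = 0.000643) and in 11 of the 20 alternatives. It was at -0.42 with the expressed-gene trend removed and at -1.56 with the all-gene trend removed.

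Downstream, of 25 genes for EGR corepressors and known EGR or AP-1 targets 1 fell, 0 rose and 24 did not pass the test, beside 1.92% of all genes called lower. The list's median was -0.51, or -0.47 with the expressed-gene trend removed. Itga5, a fibronectin receptor subunit, fell to 118 ± 55.5 CPM in PV-10, against 348 ± 38.7 CPM in PBS tumours (log2 change -1.56, SE 0.36, edgeR adjusted p = 0.0462). Its change was -1.60 with the all-gene trend removed and -0.39 with the expressed-gene trend removed. Nab2, an EGR corepressor that EGR proteins induce, was also chosen after its values were seen. It averaged 76.6 ± 36.995 CPM in PV-10 and 150.3 ± 12.2 CPM in PBS tumours and missed the threshold (log2 change -0.97, edgeR adjusted p = 0.0982). Nab2 was called at -1.44 without PV-10 tumour 3 (edgeR adjusted p = 0.000917), and it was at -0.07 with the expressed-gene trend removed and at -0.99 with the all-gene trend removed. The calls of Fosl2, Atf7, Per1, Crebbp, Ep300 and Itga5 rested on the tumours included, as that of Egr3 did. All 6 were called without PV-10 tumour 3, at log2 changes between -2.56 and -1.92, and none was on leaving out any other tumour (edgeR adjusted p between 0.0735 and 0.222).

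**Figure D5:**
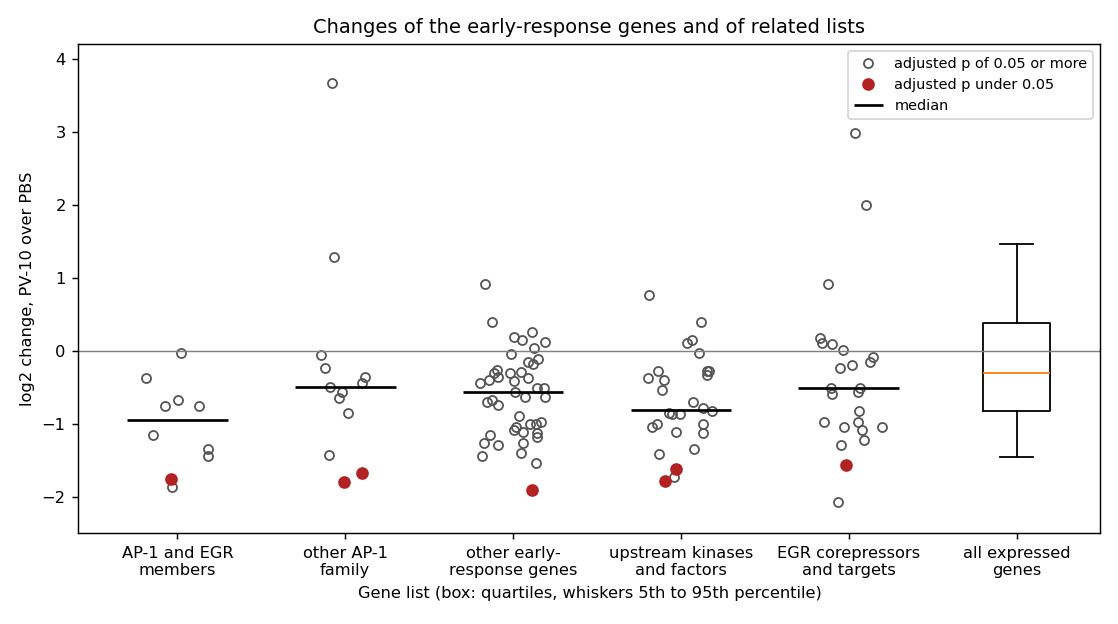
Fitted log2 change between PV-10 and PBS tumours for each gene of the 10 members and of 4 related lists, with filled red points for adjusted p under 0.05 and black lines at the medians, beside a box for 11351 expressed genes. The medians lie at -0.95 for the members and at -0.50, -0.56, -0.80 and -0.51 for the lists, against -0.30 for expressed genes.

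Genes outside the 10 with a profile like theirs over the 6 tumours were then sought. Against the mean standardised profile of the 10 members, Egr1 had the highest Pearson correlation of the members (0.995) and Atf3 the lowest (0.683). Of 11913 other genes ranked, 121 had a correlation of at least 0.99 over the 6 tumours, which share the contrast between groups and the place of PV-10 tumour 3. The 5 most alike were Pitpna, Rnf24, Ralgds, Trim24 and Csf2rb2, with correlations between 0.9985 and 0.9994. Csf2rb2 had 7.45, 14.8 and 33.3 CPM in PV-10 tumours, against 51.8, 55.2 and 43.8 CPM in PBS tumours, and Pitpna 174, 194 and 229 CPM, against 243, 248 and 236 CPM.

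Markers of cell types were read in the same tumours, and 0 members of any marker list were called. Summed epithelial markers averaged 849 ± 101 CPM in PV-10 and 883 ± 199 CPM in PBS tumours (SD, n = 3 each). Keratins made up most of that sum. Krt18 was at 323 ± 27.8 CPM in PV-10 and 311 ± 71.8 CPM in PBS tumours, Krt8 at 199 ± 62.2 CPM in PV-10 and 324 ± 79.4 CPM in PBS tumours, and Krt7 at 261 ± 38.1 CPM in PV-10 and 183 ± 33.7 CPM in PBS tumours. Among the other listed markers, Epcam was near 0, at 0.801 ± 0.588 CPM in PV-10 and 0.233 ± 0.202 CPM in PBS tumours. Krt5 was at 0.862 ± 0.365 CPM in PV-10 and 0.259 ± 0.274 CPM in PBS tumours. Krt14 was at 2.14 ± 0.722 CPM in PV-10 and 1.15 ± 0.656 CPM in PBS tumours. Sftpc had 0 counts in all 6 tumours. Cdh1, the E-cadherin gene, was at 4.25 ± 1.29 CPM in PV-10 and 9.27 ± 0.881 CPM in PBS tumours (log2 change -1.12, edgeR adjusted p = 0.0627). The groups did not overlap, a direction that 30.3% of expressed genes share. With the expressed-gene trend removed Cdh1 was at -0.52 (edgeR adjusted p = 0.254). Of the 10 epithelial markers tested, 2 were below 0, Krt8 and Cdh1, and the list's median log2 change was 0.70. That median rests in part on markers near 0 CPM, such as Epcam at 1.77 and Krt5 at 1.73. The more abundant keratins Krt8, Krt18, Krt19 and Krt7 lay at -0.71, 0.05, 0.09 and 0.51. Endothelial markers summed to 178, 159 and 466 CPM in PV-10 tumours, against 259, 596 and 531 CPM in PBS tumours, with PV-10 tumour 3 above PBS tumour 1. Of the 10 endothelial genes, 7 had a log2 change below 0, with a median of -0.57. With the expressed-gene trend removed 3 of the 10 were below 0, with a median of 0.08. Macrophage and monocyte markers ranged from 2141 to 2197 CPM in PV-10 and from 1619 to 2442 CPM in PBS tumours. Fibroblast markers ranged from 3646 to 6685 CPM in PV-10 and from 2753 to 5960.1 CPM in PBS tumours. T and NK cell markers ranged from 15.1 to 81.6 CPM in PV-10 and from 22.2 to 38.05 CPM in PBS tumours, and neutrophil markers from 6.65 to 14.8 CPM in PV-10 and from 7.79 to 11.2 CPM in PBS tumours. Skeletal muscle markers were at 90.1, 381 and 5.36 CPM in PV-10 tumours, against 47.9, 7.26 and 5.77 CPM in PBS tumours. Mitochondrially encoded mRNAs ranged from 29720.3 to 53382 CPM in PV-10 and from 39852 to 60742 CPM in PBS tumours. The part of cell type mix and of RNA quality in the members' values was not tested.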

How the data were processed

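Total RNA of 6 whole tumours (3 PV-10, 3 PBS) was sequenced from strand-specific libraries. The authors used STAR 2.7.7a (genome mm10), then RSEM 1.3.0 on the Gencode M21 gene model, per the labels' protocols. The deposited table of estimated counts holds whole numbers, not normalized, and the deposited TPM table holds abundance per length. The labels do not state how counts were rounded. Columns were matched to tumours through library names.

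Genes were tested with the quasi-likelihood method of edgeR 4.0.16 in R 4.3.3 (robust, default expression filter, TMM scaling, Benjamini-Hochberg adjustment over 22056 genes). CPM are TMM-scaled, and changes are PV-10 over PBS. The median change over all genes was 0.30 with TMM and -0.21 with log2(TPM + 1). Alternatives used DESeq2 1.42.0, limma 3.58.1, other scalings and filters, and removal of each library's trend with effective length (counts over TPM) and GC content by splines with 5 degrees of freedom. That trend was estimated over all genes, and, chosen after seeing the data, over expressed genes, those averaging a log2 CPM of 2 or more. The fits were tested on simulated data. Read counts carry no molecular identifiers, and RSEM shares reads among similar genes.

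Genes were named by rule: all members, from each of the 4 pathway lists up to 4 called genes, or 2 abundant ones where none was called, and the 5 genes most like the members in profile. Myc, Nr4a1, Srf, Nab2 and the marker genes named fall outside this rule and were chosen after their values were seen. Members and lists were chosen with earlier results of these data known. The labels do not state that each tumour came from its own mouse, and p-values measure the spread between these tumours.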

Additional observations from a re-analysis of the deposited data

How the results depend on the processing

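Of the members, 8 kept a negative log2 change in all 20 alternatives, with ranges of -2.98 to -1.08 for Egr1, -2.81 to -1.38 for Egr3, -2.33 to -0.61 for Jun and -1.62 to -0.02 for Junb. Atf3 was at 0.03 with DESeq2 size factors, 0.02 with DESeq2, 0.07 with a mean count of at least 50, 0.05 with protein-coding genes alone (added after seeing the data) and 0.13 with the length and GC trend of expressed genes removed. Leaving out each tumour in turn gave Atf3 -0.76 to 0.48, with 0.48 without PV-10 tumour 1, 0.21 without PBS tumour 1 and 0.15 without PBS tumour 2. Ier2 was at 0.18 and Pitpna at 0.14 with that trend removed. The 6 list genes called lower stayed below 0 in all 20 alternatives and were called in 13.

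The 1 member called lower became 2 with DESeq2 size factors, library size alone, a mean count of at least 50 and protein-coding genes alone, 3 with limma-voom, 5 with DESeq2 and with no low-count filter, 6 with limma on log2(TPM + 1) or log2(TPM + 0.1) and 0 with either trend removal. It ranged from 0 to 7 with a tumour left out. Genes called lower, 423 with all tumours, numbered 1068, 1461, 1112, 1256, 1181, 2275, 2627, 3786 and 3580 in the same order of settings, 0 with either trend removal, and 0 to 4515 with a tumour left out. Genes called higher, 699 with all tumours, numbered 1469 with DESeq2 size factors, 1593 with a mean count of at least 50, 1549 with protein-coding genes alone, 5692 with DESeq2, 2037 with no low-count filter, 251 and 418 with limma on log2(TPM + 1) and log2(TPM + 0.1), 2 and 1 with the trends of all and of expressed genes removed, and 1 to 6884 with a tumour left out. The causes were not tested. Where 0 genes were called lower, edgeR still gave 5537 and 6077 genes an unadjusted p under 0.05 with the 2 trend removals.

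Whether the replicate numbers pair the tumours is not settled here. Deviations of same-numbered tumours from their group means correlated at -0.05, 0.07 and 0.07, but 3 tumours per group are too few to decide it. A replicate block called 3 members lower (Jun, Egr1 and Egr3), and 1054 genes higher and 1818 lower.

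All genes tested, scarce ones included, had a median log2 change of 0.30, and the expressed genes one of -0.30. The lists' own medians, -0.50, -0.56, -0.80 and -0.51, thus lay less far below the expressed genes than below all genes tested. Relative to all genes tested the medians of the lists were -0.80 for other AP-1 members, -0.86 for early-response genes, -1.11 for upstream genes and -0.82 for targets. With DESeq2 they were -2.28, -2.34, -2.60 and -2.30, and with no low-count filter -2.21, -2.29, -2.52 and -2.26, where many more scarce genes enter the comparison. Upstream genes were at -0.58 with the trend of expressed genes removed. With a tumour left out the 4 lists ranged from -1.80 to -0.62, -1.87 to -0.64, -2.24 to -0.80 and -1.65 to -0.49. Depth limits Atf3 most, with 61 counts in PV-10 tumour 1.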
